A study of Homo sapiens with 12 samples.

Results

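The transcripts described here were nearly lost in both KURAMOCHI and COV362 cells, a pair of human ovarian cancer lines, after 6 hr of THZ1 at 250 nM. They were chosen by their values: a mean of at least 20 FPKM (fragments per kilobase of transcript, scaled to sequencing depth and spike-ins) in DMSO, and a 250 nM mean of at most 0.1 of the DMSO mean, in each line. Rows named as microRNAs, snoRNAs or Cajal body RNAs were left out, and 19 of them met the other terms. Of 4526 genes with the DMSO minimum in both lines, 119 met the rule, out of 23621 rows in all. The ratio alone was met by 232 of the 4526 genes in KURAMOCHI and by 185 in COV362. All 119 are annotated as protein coding. Because the 250 nM and DMSO values chose them, their difference is given as a description, without a test.

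Each line had 6 libraries: 2 of DMSO, 2 of THZ1 at 50 nM and 2 of THZ1 at 250 nM. All cells were labelled as untransduced controls, KURAMOCHI were grown in RPMI and COV362 in DMEM, both with fetal bovine serum, and all were collected at 6 hr. Each group is 1 cell line treated in duplicate, which the design text calls biological duplicates, so the p-values measure the spread between these libraries only.

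THZ1 binds covalently to CDK7, a kinase of the general transcription factor TFIIH that phosphorylates RNA polymerase II, and also inhibits CDK12 and CDK13, which act during elongation. When new synthesis is blocked, a transcript disappears at the rate at which it is degraded. Short-lived transcripts are known to include many that encode transcription factors, cell cycle regulators and signalling proteins, and long-lived ones to include those of ribosomal proteins and metabolic enzymes. Abundance at a single time does not separate synthesis from decay, and neither was measured.

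The values are per cell in the sense that the RNA was matched by cell count before ERCC spike-in RNAs were added. In bulk samples, fewer cells of one kind and less RNA in each of them cannot be told apart. Read counts are not in the tables, so depth is unknown. Lineage markers were present: 8 of 10 serous ovarian markers were above 1 FPKM in KURAMOCHI DMSO cells (all but CDH1 and MUC16) and 9 of 10 in COV362 (all but WT1). Of 12 leukocyte, endothelial and fibroblast markers, 5 in KURAMOCHI and 3 in COV362 were above 1 FPKM, and PTPRC, CD3E, PECAM1, DCN and LUM were at or under it in both. The summed FPKM of those 12 by dose was 24.5 (DMSO), 19.4 (50 nM) and 14.6 (250 nM) in KURAMOCHI and 56.0, 33.2 and 27.6 in COV362, and their part in the results below was not tested.

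In DMSO the 119 transcripts were moderately abundant. Their median mean FPKM was 34.4 in KURAMOCHI (highest 200.5) and 40.2 in COV362 (highest 342.9), against medians of 52.6 and 63.1 for all 4526 genes, and only 26 members lay above that median in each line. At 250 nM the members had a median of 1.75 FPKM in KURAMOCHI and 2.60 FPKM in COV362, and 18 members in KURAMOCHI and 6 in COV362 averaged under 1 FPKM. No member reached the lowest value a table assigns to undetected rows. Their summed FPKM was 0.443% and 0.396% of all FPKM in the DMSO libraries of KURAMOCHI, 0.234% and 0.225% at 50 nM, and 0.0383% and 0.0435% at 250 nM. In COV362 these shares were 0.413% and 0.392%, then 0.172% and 0.169%, then 0.0543% and 0.0538%. The shares at 250 nM follow from how the members were chosen, and the shares at 50 nM were lower than in DMSO in both lines.

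At the threshold, the members just inside were CCDC127, SEMA4C, ARL14EP and CDKN1B, whose larger remaining percentage was 9.93%, 9.94%, 9.95% and 9.97% of DMSO. Just outside were ZMYND19, NET1, PIGC and KTI12 at 10.01%, 10.02%, 10.06% and 10.08%. These sit within a narrow band, and the border between them is a matter of the rule.

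The lower dose was not used to choose the members. At 50 nM the median member kept 41.3% of its DMSO level in KURAMOCHI (range 2.59% to 96.3%), against 78.4% for the other 4407 genes, and 28.7% in COV362 (range 4.22% to 72.1%), against 55.5%. limma called 68 of the 119 lower in KURAMOCHI, where 11.3% of the 14251 genes tested were called lower, and 117 of 119 in COV362, where 70.5% were. No member was called higher in either line, against 0.0842% and 0.0772% of all genes. A call is an adjusted p under 0.001 (Benjamini-Hochberg over all genes tested) with a log2 fold change beyond 0.5. The median log2 fold change of log2(FPKM + 1) was -1.23 over the members and -0.40 over all genes in KURAMOCHI, and -1.73 and -0.85 in COV362. The 50 nM contrast uses the same DMSO libraries as the rule, so the members' DMSO values enter both. The KURAMOCHI count rests on all its libraries: leaving out any 1 of the 6 left between 0 and 6 members called. With each library scaled to the same median FPKM, 12 members were called lower in KURAMOCHI and 3 in COV362, and the median log2 fold change was -0.54 and -0.55. At an adjusted p under 0.05 (limma with Benjamini-Hochberg adjustment) 101 and 118 members were called lower, against 40.2% and 82.0% of all genes.

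Both 50 nM libraries lay below both DMSO libraries for 116 members in KURAMOCHI, where this held for 75.8% of all genes tested, and for 119 in COV362, where it held for 95.7%. At 250 nM the median member was at 5.30% of DMSO in KURAMOCHI and 6.84% in COV362, and the other genes at 44.2% and 37.1%.

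**Figure D1:**
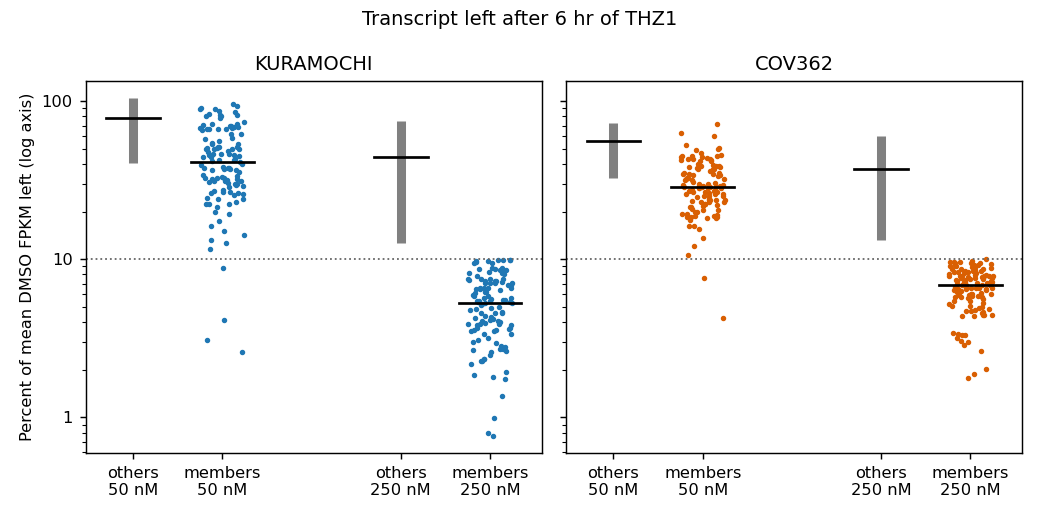
Percent of mean DMSO FPKM left (log axis) at each dose in each line, for the members (coloured points, 1 per gene) and the other 4407 genes with the DMSO minimum (grey bar, 5th to 95th percentile), with medians as black lines and the 10% limit of the rule dotted. The 250 nM points lie under the dotted line by the rule, and at 50 nM the members spread from 2.59% to 96.3% in KURAMOCHI and from 4.22% to 72.1% in COV362.

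Levels at 50 nM differed widely among members that the rule put under one limit at 250 nM. In KURAMOCHI 4 members were already at or under 10% of DMSO at 50 nM, 21 at or under 25% and 77 at or under 50%, while 13 kept more than 75%. In COV362 2 members were at or under 10%, 41 at or under 25% and 114 at or under 50%, and none kept more than 75%. Among the other 4407 genes the 5th percentile left at 50 nM was 40.4% in KURAMOCHI and 32.7% in COV362. More was left at 50 nM in KURAMOCHI than in COV362 for 103 of the 119. The other genes lay the same way, with medians of 78.4% in KURAMOCHI and 55.5% in COV362. Their matching share was not counted, so the 103 is not read as particular to the members. The tables were normalized separately, and this difference between lines was not tested. The order of the members was alike in the lines, with a Pearson's r of 0.865 and a Spearman's rho of 0.845 between the log2 ratios of 50 nM to DMSO over 119 genes, and 0.771 and 0.759 over the other 4407. This is a description across genes, which share libraries.

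The least was left at 50 nM of PPP1R10, which encodes a nuclear targeting subunit of protein phosphatase 1 that acts in transcription termination. Its FPKM in KURAMOCHI was 29.1 and 26.4 in DMSO, 0.808 and 0.626 at 50 nM, and 0.230 and 0.317 at 250 nM. In COV362 it was 25.6 and 28.3, then 1.21 and 1.07, then 0.469 and 0.551. Most of the loss had taken place at the lower dose, where 2.59% and 4.22% were left, and no library of one group overlapped another. The log2 fold change at 50 nM was -4.06 (SE 0.13) in KURAMOCHI (adjusted p = 0.00014, limma with Benjamini-Hochberg adjustment) and -3.71 (SE 0.10) in COV362 (adjusted p = 5.1e-06, limma with Benjamini-Hochberg adjustment).

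PPP1R10 (ENSG00000204569) spans chr6:30568190-30585020 on the minus strand of GRCh37, with 20 exons. The 250 bases before its transcript start, chr6:30585021-30585270, are shown because this is the member with the deepest loss at 50 nM in both lines and its promoter holds a TATA box sequence, TATAAA, 32 bases before the start. The stretch is RefSeq's (GRCh38.p14), found again on GRCh37 by exact match, and is printed 5′ to 3′ along the gene. Capitals mark TATAAA, the CCAAT box and the GC box GGGCGG on this strand.
PPP1R10: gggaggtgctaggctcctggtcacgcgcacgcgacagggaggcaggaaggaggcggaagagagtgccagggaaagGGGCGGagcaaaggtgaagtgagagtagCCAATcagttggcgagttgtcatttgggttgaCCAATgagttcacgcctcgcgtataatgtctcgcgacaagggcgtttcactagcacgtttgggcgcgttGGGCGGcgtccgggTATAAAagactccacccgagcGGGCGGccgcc

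In KURAMOCHI the next members by loss at 50 nM were TIGD5, KRCC1, FADD and PRMT6. FADD, the adaptor that links death receptors to caspase-8, was at 45.4 and 47.2 FPKM in KURAMOCHI DMSO cells, 3.90 and 4.23 at 50 nM, and 0.344 and 0.390 at 250 nM. In COV362 FADD was at 98.0 and 101.8, then 12.2 and 14.8, then 1.62 and 1.89. Its level stepped down by a like factor at each dose, with 8.77% and 13.5% left at 50 nM and 0.792% and 1.76% at 250 nM, and its larger remaining percentage was the lowest of all members. TIGD5, a single-exon gene derived from a DNA transposase, kept 3.10% in KURAMOCHI and 10.6% in COV362 at 50 nM. KRCC1 kept 4.13% and 7.62%, and PRMT6, an arginine methyltransferase of histone H3, 11.6% and 17.7%. All 4 were called lower at 50 nM in both lines, with log2 fold changes from -3.70 to -2.79 in KURAMOCHI and from -3.33 to -2.28 in COV362. In COV362 the 5 with the least left were PPP1R10, KRCC1, TIGD5, ZNF623 and FADD. ZNF623, a zinc finger gene, was at 12.1% there and at 31.3% in KURAMOCHI.

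**Figure D2:**
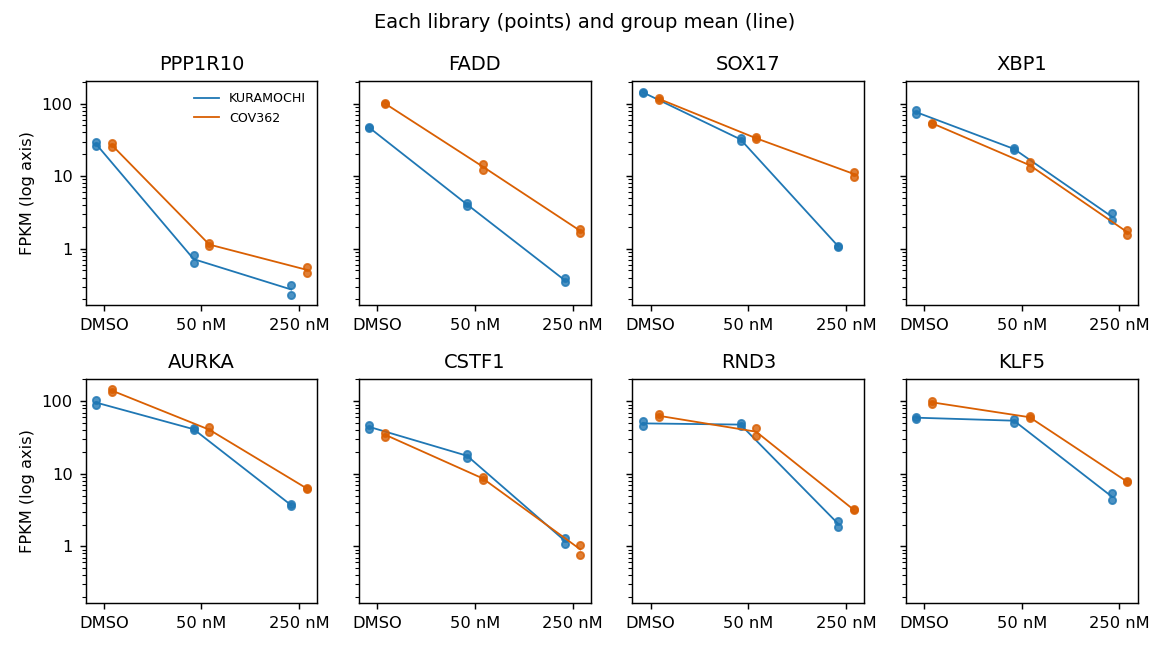
FPKM (log axis) of 8 members in every library of Ku (blue) and COV362 (orange) cells by dose, with lines through the group means of 2 libraries. PPP1R10 was at most 1.21 FPKM in the 50 nM libraries, whereas RND3 and KLF5 in KURAMOCHI kept 96.3% and 90.9% at 50 nM and were at most 2.23 and 5.46 FPKM at 250 nM.

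At the other end stood members that 50 nM left almost at the DMSO level in KURAMOCHI. RND3, a small GTPase that opposes actin stress fibres, was at 53.9 and 45.2 FPKM in KURAMOCHI DMSO cells, 50.0 and 45.5 at 50 nM, and 2.23 and 1.87 at 250 nM. The DMSO and 50 nM libraries overlapped, and the log2 fold change of -0.05 (SE 0.12) was not called (adjusted p = 0.74, limma with Benjamini-Hochberg adjustment). In COV362 RND3 was at 60.3 and 66.1 in DMSO, 33.3 and 42.9 at 50 nM, and 3.24 and 3.14 at 250 nM, and its 50 nM difference of -0.73 (SE 0.13) was not called either (adjusted p = 0.0012, limma with Benjamini-Hochberg adjustment). KLF5, a Kruppel-like transcription factor of epithelia, kept 90.9% at 50 nM and 8.22% at 250 nM in KURAMOCHI, and 62.3% and 8.04% in COV362. FAM83D, which recruits casein kinase 1 to the mitotic spindle, kept 92.8% and 8.59% in KURAMOCHI and 72.1% and 8.36% in COV362. ADNP, a homeodomain chromatin protein, and NUAK2, a kinase related to AMPK, kept 88.7% and 88.6% at 50 nM in KURAMOCHI and 49.0% and 42.7% in COV362. None of these 5 was called lower at 50 nM in KURAMOCHI, and KLF5, ADNP and NUAK2 were called lower in COV362. CDR2, an antigen of paraneoplastic disease, was among the 5 with the most left in COV362, at 50.4%, and kept 68.5% in KURAMOCHI. RND3 and FAM83D were the only 2 of the 119 members not called lower at 50 nM in COV362. With libraries scaled to equal median FPKM, the 50 nM differences of all 5 were above 0 in KURAMOCHI, from 0.51 to 0.64, and in COV362 those of KLF5 (0.53), ADNP (0.19), RND3 (0.47) and FAM83D (0.73) were above 0 too.

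**Figure D3:**
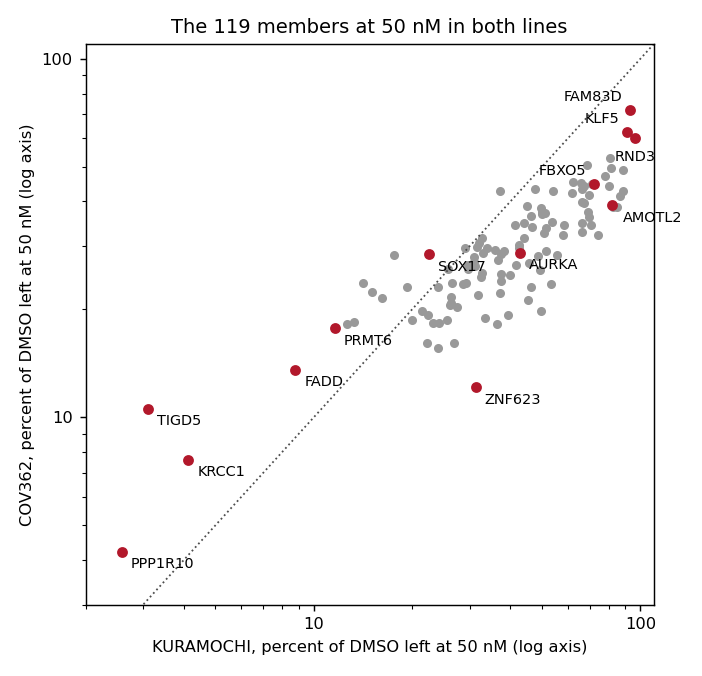
Percent of DMSO left at 50 nM in KURAMOCHI (x axis) and COV362 (y axis) for the 119 members, both on log axes, with 13 named genes in red and equality dotted. Most points lie under the dotted line, PPP1R10, KRCC1, TIGD5 and FADD lie at the lower left, and RND3, KLF5 and FAM83D at the upper right.

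The members were sorted by what their products do, after their values were seen, and 96 of them could be placed in 6 groups. Among 14 genes of the cell cycle and of chromosome segregation, the median left at 50 nM was 57.0% in KURAMOCHI and 36.7% in COV362, and 5 and 13 of them were called lower, beside 11.3% and 70.5% of all genes. The remaining groups had medians between 32.6% and 42.4% in KURAMOCHI and between 25.2% and 29.6% in COV362. At 250 nM the group medians ran from 3.97% to 5.89% in KURAMOCHI and from 5.65% to 7.77% in COV362. These groups hold few genes each and were not tested against each other.

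AURKA, the mitotic kinase Aurora A, was at 102.8 and 89.3 FPKM in KURAMOCHI DMSO cells, 42.4 and 40.0 at 50 nM, and 3.80 and 3.58 at 250 nM. In COV362 AURKA was at 133.9 and 148.0, then 37.4 and 43.8, then 6.38 and 6.16. The doses did not overlap in either line, and the 50 nM fall was -1.20 (SE 0.09) in KURAMOCHI (adjusted p = 0.00041, limma with Benjamini-Hochberg adjustment) and -1.77 (SE 0.10) in COV362 (adjusted p = 2.2e-05, limma with Benjamini-Hochberg adjustment). CCNF, the cyclin F subunit of an SCF ubiquitin ligase, had less left than AURKA at the lower dose, with 24.1% and 15.6% left at 50 nM. HJURP, the chaperone that loads the centromeric histone CENP-A, kept 55.6% and 28.3% at 50 nM and 3.18% and 3.0% at 250 nM. FBXO5, an inhibitor of the anaphase-promoting complex, kept 71.9% and 44.8% at 50 nM and 2.34% and 3.31% at 250 nM. HJURP and FBXO5 were called lower at 50 nM in COV362 and not in KURAMOCHI, and that difference between lines was not tested. With equal-median scaling the 50 nM difference of FBXO5 was 0.22 in KURAMOCHI and 0.057 in COV362.

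The negative cycle regulators CDKN1B and WEE1 were members too, as were PLK2 and E2F3. CDKN1B, the CDK inhibitor p27, kept 37.1% and 42.9% at 50 nM and 2.78% and 9.97% at 250 nM, and with equal-median scaling its COV362 difference at 50 nM was 0.00032. WEE1, the kinase that restrains CDK1, kept 71.1% and 44.6%, then 5.02% and 4.94%. PLK2, a Polo-like kinase induced by stress, was the most abundant member in COV362, at 140.7 and 124.7 FPKM in KURAMOCHI DMSO cells and 322.4 and 363.4 in COV362 DMSO cells. PLK2 kept 58.4% and 34.5% at 50 nM and was called lower in both lines. E2F3, an activating E2F factor, kept 82.5% in KURAMOCHI, where it was not called, and 38.5% in COV362, where it was.

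Transcription factors among the members included SOX17 and MEIS1, 2 of the 5 serous ovarian lineage factors with the DMSO minimum (2.63% over all such genes). The serous marker PAX8 was no member. It averaged 136.1 FPKM in DMSO and 12.6 at 250 nM in KURAMOCHI, and 124.1 and 16.8 in COV362. SOX17, a factor of the serous ovarian and tubal lineage, was at 139.4 and 146.2 FPKM in KURAMOCHI DMSO cells, 30.3 and 33.9 at 50 nM, and 1.06 and 1.10 at 250 nM. In COV362 SOX17 was at 112.7 and 120.8, then 34.3 and 32.2, then 9.88 and 11.6. The lines began at like levels and were close at 50 nM, and at 250 nM 0.757% was left in KURAMOCHI, the lowest value of any member there, and 9.18% in COV362. The 50 nM fall of SOX17 was -2.12 (SE 0.09) in KURAMOCHI (adjusted p = 0.00022, limma with Benjamini-Hochberg adjustment) and -1.78 (SE 0.10) in COV362 (adjusted p = 2.2e-05, limma with Benjamini-Hochberg adjustment). MEIS1, a homeodomain partner of HOX proteins, kept 37.4% and 24.1% at 50 nM and was called lower in both. XBP1, the transcription factor of the unfolded protein response, kept 31.2% and 26.4% at 50 nM and 3.65% and 3.15% at 250 nM. TGIF1, a repressor of TGF-beta signalling, kept 47.7% in KURAMOCHI, where it was not called, and 43.2% in COV362, where it was, though its COV362 difference was 0.012 with equal-median scaling.

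Zinc finger genes with the prefix ZNF made up 7 members, of 31 such genes with the DMSO minimum, where members were 2.63% of all genes with that minimum. ZNF146, a gene with zinc fingers and few other features, was the most abundant of them, at 136.3 and 113.4 FPKM in KURAMOCHI DMSO cells, 58.9 and 51.0 at 50 nM, and 12.2 and 11.9 at 250 nM. ZNF7, ZNF282 and ZNF302 kept 39.5%, 37.5% and 31.9% at 50 nM in KURAMOCHI and 19.3%, 25.2% and 21.9% in COV362. Of all 455 ZNF genes tested, 96 (21.1%) were called lower at 50 nM in KURAMOCHI and 388 (85.3%) in COV362, beside 11.3% and 70.5% of all genes, and none higher, with median log2 fold changes of -0.66 and -1.12.

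A set of members act on RNA polymerase II and on mRNA ends. CSTF1, a subunit of the cleavage stimulation factor that acts at polyadenylation sites, was at 47.4 and 41.1 FPKM in KURAMOCHI DMSO cells, 19.0 and 16.5 at 50 nM, and 1.31 and 1.09 at 250 nM. MEPCE, the enzyme that caps the 7SK RNA of the P-TEFb inhibitory complex, kept 24.0% and 23.1% at 50 nM and 2.59% and 5.84% at 250 nM. The Mediator subunits MED7 and MED17 kept 27.5% and 45.5% in KURAMOCHI and 20.3% and 27.0% in COV362 at 50 nM, and WDR82, which binds the polymerase tail, 32.8% and 31.6%. CTCF, the insulator protein, kept 69.8% and 36.2%. Of these, MEPCE, CSTF1, MED7 and WDR82 were called lower at 50 nM in both lines, and MED17 and CTCF in COV362 alone, a difference that was not tested. PHF23, a PHD finger protein of chromatin, kept 29.1% and 29.6%. MED7, MED17, WDR82, CTCF and WEE1 were named after their values were seen.

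Several members encode nucleolar factors that assemble ribosomes, among them RRS1, IMP3, UTP23, UTP3, PPAN, SURF6, NGDN and MPHOSPH10. They were picked after their values were seen, and assembly factors that were no members were not counted. RRS1, at 93.1 FPKM on average in KURAMOCHI DMSO cells, kept 34.0% and 29.6% at 50 nM and 3.08% and 6.47% at 250 nM. PPAN kept 13.3% and 18.5% at 50 nM, MPHOSPH10 80.0% and 44.3%, and both were under 9% at 250 nM in both lines. On a separate list, none of the 82 cytoplasmic ribosomal protein genes with the DMSO minimum was a member, and at 50 nM their median log2 fold change was -0.04 in KURAMOCHI and -0.54 in COV362, with 1 and 13 of 82 called lower, beside 11.3% and 70.5% of all genes. Members were 2.63% of all genes with the DMSO minimum.

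Signalling members covered several pathways. ANKRD1, a target of the YAP coactivator, was the most abundant member in KURAMOCHI, at 217.6 and 183.4 FPKM in KURAMOCHI DMSO cells, 57.9 and 49.8 at 50 nM, and 4.46 and 4.86 at 250 nM. In COV362 ANKRD1 was at 294.8 and 337.8, then 47.4 and 54.7, then 10.2 and 7.82. Its groups did not overlap, and it was called lower at 50 nM in both lines. AMOTL2, another YAP target that also binds YAP, kept 81.9% in KURAMOCHI, where it was not called, and 39.0% in COV362, where it was. AJUBA, a LIM protein of the Hippo pathway, kept 35.8% and 29.2%. Of the 10 YAP and TEAD targets listed, 9 had the DMSO minimum and 3 were members (2.63% over all such genes), and 4 of 10 in KURAMOCHI and 10 of 10 in COV362 were called lower at 50 nM, beside 11.3% and 70.5% of all genes.

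The dual specificity phosphatases DUSP1 and DUSP5, which switch off MAP kinases, were the members among 7 ERK feedback genes with the DMSO minimum, beside 2.63% over all such genes. DUSP1 was at 25.4 and 24.0 FPKM in KURAMOCHI DMSO cells, 7.40 and 7.92 at 50 nM, and 0.659 and 0.655 at 250 nM. In COV362 DUSP1 was at 31.0 and 32.8, then 8.39 and 9.48, then 1.83 and 2.21. DUSP1 was called lower at 50 nM in both lines. DUSP5 kept 86.9% at 50 nM in KURAMOCHI, where it was not called, and 41.5% in COV362, where it was, so that this pair of related genes stood far apart at the lower dose in KURAMOCHI and both were under 10% at the higher. TNFRSF1A, the TNF receptor, and TRAF4, an adaptor of that receptor family, were members beside FADD, at 31.0% and 29.7% at 50 nM in KURAMOCHI and 27.2% and 26.7% in COV362, and were named after their values were seen.

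DUSP1 (ENSG00000120129), at chr5:172195099-172198198 on the minus strand of GRCh37, is an immediate early gene, and its promoter is shown because it holds several of the motifs searched. The 250 bases before its start lie at chr5:172198199-172198448, with RefSeq's sequence (GRCh38.p14) matched to GRCh37. Capitals mark TATAAA, 30 bases before the start, the cAMP response element TGACGTCA, 125 bases before it, the E-box CACGTG, 108 bases before it, and GGGCGG or its reverse complement CCGCCC.
DUSP1: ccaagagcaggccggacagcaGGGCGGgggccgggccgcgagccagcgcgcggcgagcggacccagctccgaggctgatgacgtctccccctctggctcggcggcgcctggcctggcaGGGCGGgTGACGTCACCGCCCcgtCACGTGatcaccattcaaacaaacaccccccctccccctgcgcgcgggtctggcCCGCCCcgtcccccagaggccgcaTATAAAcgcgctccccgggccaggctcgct

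Members with roles in folding, membranes and organelles numbered 14, of which 12 in KURAMOCHI and 14 in COV362 were called lower at 50 nM, beside 68 and 117 of all 119 members and 11.3% and 70.5% of all genes. DNAJB1, a co-chaperone of HSP70 that heat shock induces, kept 32.2% and 30.7% at 50 nM and 2.16% and 5.08% at 250 nM. SLC38A2, an amino acid transporter of the stress response, was at 56.0 and 46.7 FPKM in KURAMOCHI DMSO cells and 183.4 and 212.4 in COV362 DMSO cells, and kept 38.3% and 29.1% at 50 nM. TMEM177, a mitochondrial membrane protein, kept 22.3% and 19.3% at 50 nM and 1.74% and 2.01% at 250 nM. FADD, PPP1R10 and TMEM177 were the 3 genes that still met the rule after equal-median scaling of the libraries. On that scale the members' median log2 fold change at 250 nM was -2.04 in KURAMOCHI and -1.63 in COV362, against 0.30 and 0.33 over all genes, so the members lay below the other genes on either scale, as the rule makes them.

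Lists of gene families and pathways put these members in context. Of 32 lists, 14 held at least 1 member, and 25 members were on a list. Of all genes tested, 11.3% in KURAMOCHI and 70.5% in COV362 were called lower at 50 nM, and members made up 2.63% of the genes with the DMSO minimum. Of 22 mitotic genes tested, 9 were called lower at 50 nM in KURAMOCHI and 22 in COV362 (medians -0.93 and -1.24), and 2 of the 20 with the DMSO minimum were members. Of 23 stress response and ATF4 genes, 8 and 17 were called lower (medians -0.86 and -1.10), with 2 members of 11. Of 12 serous lineage factors, 3 and 10 were called lower (medians -0.70 and -1.10), with 2 members of 5. No member was among the 15 glycolytic enzymes, the 14 SR and CLK splicing regulators, the 11 snoRNA host genes, the 11 NF-kB feedback genes or the 2 AP-1 factors with the DMSO minimum. For lists this small, 0 members is near the share of 2.63% over all genes with that minimum. The whole table had medians of -0.40 in KURAMOCHI and -0.85 in COV362. MYC and MCL1, which the study followed, were no members. MYC was at 4.10% of DMSO at 250 nM in KURAMOCHI and at 25.2% in COV362, and MCL1 at 10.5% and 22.7%.

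The median member had fewer exons and a shorter span than the median of the other genes, while 26 of the 119 had 10 or more exons. In the GENCODE annotation of GRCh37, where all 119 found a coding gene (112 by symbol and 7 by a RefSeq synonym), the median member had 5 exons and spanned 12723 bases, against 9 exons and 21335 bases for the other 4289 coding genes with the DMSO minimum. Single-exon genes were 8 of 119 members (6.72%) and 44 of 4289 others (1.03%), and genes of at most 3 exons were 37 members (31.1%) and 377 others (8.79%). Read the other way, 15.4% of single-exon genes were members, 8.01% of genes with 2 or 3 exons, 2.82% with 4 to 9, and 1.29% with 10 or more. The single-exon members were TIGD5, RRS1, IMP3, ATXN7L3B, PRMT6, FJX1, UTP3 and MGAT2. At 50 nM they kept a median of 31.3% in KURAMOCHI (range 3.10% to 36.7%), against 48.1% for the 26 members with 10 or more exons (range 2.59% to 81.9%), and 25.5% against 29.7% in COV362.

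**Figure D4:**
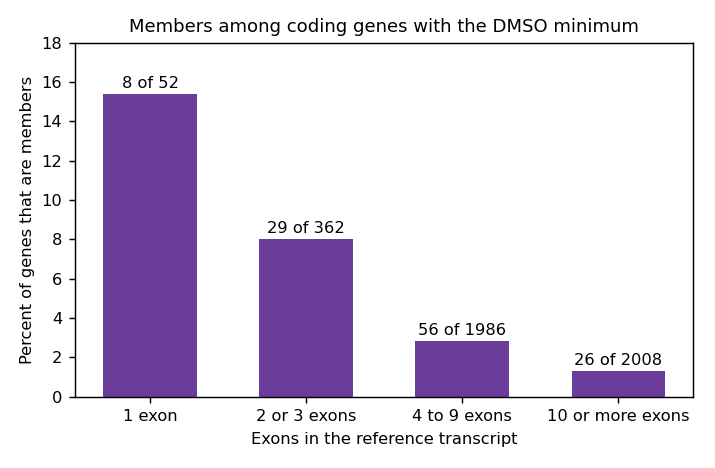
Percent of coding genes with the DMSO minimum in both lines that are members (y axis, from 0), by number of exons in the reference transcript (x axis), with the counts above each bar. The share was 15.4% for single-exon genes and 1.29% for genes with 10 or more exons.

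Spliced length did not separate them in the same way: its median was 2786 bases for members and 2527 for the others, and the median 3′ untranslated region was 1136 and 927 bases. The AU-rich pentamer ATTTA, which marks many unstable transcripts, had a median of 1.52 per kilobase of that region in members and 1.46 in the others. Counted per gene its median was 2 and 1, and 45.4% of members and 37.2% of the others held 3 or more. Transcript GC content was 49.5% and 49.3%. Among the members, longer genes kept more at 50 nM in KURAMOCHI (Spearman's rho 0.465 between span and the 50 nM ratio, over 119 genes) and less clearly so in COV362 (0.203). Over the other 4289 genes rho was 0.068 and -0.19. These are descriptions across genes of the same libraries.

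Promoter sequences were found in RefSeq (GRCh38.p14, from 250 bases before to 50 after the start) for 100 of the 119 members. A match on either strand of the letters TATAAA (reverse complement TTTATA) was present in 9% of members, 4.97% of 3644 other genes with the DMSO minimum, and 12% of all 27305 promoters. The 9 were PPP1R10, EFNB2, RND3, DUSP1, KLHL21, MED7, NUAK2, KLF5 and HERPUD1, which include both the member with the deepest loss at 50 nM and the one with the least in KURAMOCHI. CCAAT (reverse complement ATTGG) was in 44%, 39.4% and 35.7% of these sets, GGGCGG in 66%, 73.2% and 44.6%, and the ETS motif CCGGAA in 35%, 35.9% and 17.6%. The E-box CACGTG was in 9%, 11% and 7.43%, the AP-1 motif TGANTCA in 6%, 4.06% and 7.76%, and TGACGTCA in 4%, 3.73% and 1.98%. A match is a description of letters and not a bound site.

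Genes that share a promoter region with a member offered a further view. A protein-coding gene started within 1000 bases upstream on the opposite strand for 17 members (14.3%), against 16.2% of the other genes. Of these neighbours, 14 were at 5 FPKM or more in DMSO in both lines, and 12 of the 14 were no members. At 250 nM the 14 neighbours, members included, were at a median of 38.7% of DMSO in KURAMOCHI and 28.2% in COV362. The 12 are what is left once neighbours that met the rule are removed, so their values are a description. They were at a median of 41.9% of DMSO in KURAMOCHI (range 5.80% to 87.2%) and 30.9% in COV362 (range 9.95% to 59.9%), beside 44.2% and 37.1% for the other genes with the DMSO minimum.

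AURKA and CSTF1 were each other's neighbour and both members. In GRCh37, AURKA (ENSG00000087586) spans chr20:54944446-54967271 on the minus strand and CSTF1 (ENSG00000101138) chr20:54967701-54981418 on the plus strand, so their annotated starts are 430 bases apart. At 50 nM AURKA kept 42.9% and CSTF1 40.0% in KURAMOCHI, and 28.8% and 25% in COV362. At 250 nM AURKA kept 3.84% and 4.45%, and CSTF1 2.71% and 2.63%. CSTF1 fell at 50 nM by 1.27 (SE 0.13) on the log2 scale in KURAMOCHI (adjusted p = 0.00074, limma with Benjamini-Hochberg adjustment) and by 1.88 (SE 0.12) in COV362 (adjusted p = 2.3e-05, limma with Benjamini-Hochberg adjustment).

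MGAT2, a single-exon gene for a Golgi enzyme that builds N-glycans, faced RPL36AL, a ribosomal protein gene whose start lies 173 bases away. MGAT2 was at 30.9 and 28.9 FPKM in KURAMOCHI DMSO cells, 9.75 and 8.27 at 50 nM, and 2.21 and 2.23 at 250 nM. RPL36AL was at 334.4 and 304.9, then 240.3 and 202.2, then 127.5 and 109.4 in the same libraries. At 250 nM 7.41% of MGAT2 and 37.1% of RPL36AL were left in KURAMOCHI, and 9.08% and 37.2% in COV362. A like contrast was seen for TIGD5 and EEF1D, a translation elongation factor gene, at 1.36% and 58.2% in KURAMOCHI and 5.80% and 59.9% in COV362. Other pairs lay closer: CCDC137 and OXLD1 were at 4.02% and 5.80% in KURAMOCHI and 9.48% and 19.3% in COV362, and DTX3L and PARP9 at 7.29% and 19.1% and at 7.16% and 9.95%. These pairs were named after their values were seen.

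The stretches between the starts of these pairs are shown, since 1 pair was lost together and the other was not. That of AURKA and CSTF1 lies at chr20:54967272-54967434 and ends at the first RefSeq start of CSTF1, which is upstream of the annotated one. That of MGAT2 and RPL36AL lies at chr14:50087345-50087516. Both are on GRCh37, plus strand, along CSTF1 and MGAT2. Capitals mark CCAAT or its reverse complement ATTGG, and GGGCGG. No TATAAA is in either stretch.
AURKA-CSTF1: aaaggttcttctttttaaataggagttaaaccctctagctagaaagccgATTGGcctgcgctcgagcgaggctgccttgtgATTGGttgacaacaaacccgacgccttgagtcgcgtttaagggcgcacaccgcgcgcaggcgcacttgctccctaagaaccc
MGAT2-RPL36AL: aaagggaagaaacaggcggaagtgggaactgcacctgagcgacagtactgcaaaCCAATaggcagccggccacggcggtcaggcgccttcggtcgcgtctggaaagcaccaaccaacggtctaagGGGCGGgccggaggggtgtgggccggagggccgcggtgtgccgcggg

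**Figure D5:**
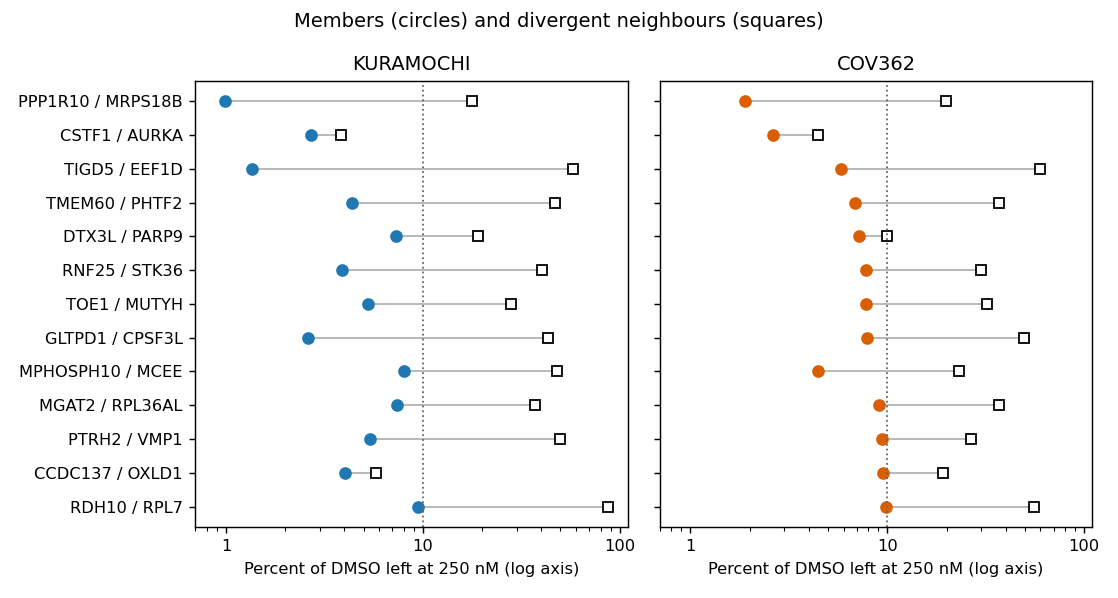
Percent of DMSO left at 250 nM (log axis) for 13 members (circles) and the gene that starts within 1000 bases on the opposite strand (open squares), in KURAMOCHI and COV362, with the 10% limit of the rule dotted. AURKA and CSTF1 are the pair with both genes under the limit in both lines, while RPL36AL and EEF1D stand at 37.1% and 58.2% in KURAMOCHI.

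Some rows share sequence with others. NDUFC2-KCTD14 is a readthrough row that overlaps NDUFC2 and KCTD14 on the same strand, and its values are uncertain. It was at 38.1 FPKM in KURAMOCHI DMSO cells and 2.96 at 250 nM, while NDUFC2 itself was at 43.6 and 38.8 and KCTD14 at 4.13 and 0.396. PPAN overlaps the readthrough row PPAN-P2RY11, which was at most 1.20 FPKM on average in any group, and TTC4 overlaps HEATR8-TTC4.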

How the data were processed

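KURAMOCHI and COV362 cells were sequenced by the authors in 12 libraries (polyA RNA, stranded kit, single-end reads of 75 bases). RNA amounts were set by cell number and ERCC spike-ins were mixed in. HiSat (build hg19), cuffquant and cuffnorm gave the deposited FPKM, which the authors scaled to the ERCC rows, with a table for each line. Tool versions are not given in the sources used here. Read counts and depth are therefore unknown, and the authors' edgeR test, which needs counts, was not used. Every column of values was used.

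ERCC rows were left out, and genes above 1 FPKM in at least 1 library were tested. Each line was fitted separately as log2(FPKM + 1) with limma 3.58.1 (R 4.3.3), 3 groups of 2 libraries, eBayes with trend, two-sided, Benjamini-Hochberg adjustment over 14251 genes. A fold change on this scale understates that of low genes. A planned contrast of 250 nM against 50 nM was also fitted, but its member counts are not given, because the rule used the 250 nM libraries. With 2 libraries against 2, an exact permutation test of 1 gene cannot give a p below 0.33.

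On simulated data for KURAMOCHI at 50 nM, with 14251 genes, 5 of 111 genes changed by 1 on the log2 scale and 51 of 89 changed by 2 were called (87 and 88 at an adjusted p under 0.05), with 1 of 14051 unchanged genes.

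The members and gene lists were chosen with earlier results of these data known. Genes named were up to 4 members per list by DMSO level, the 10 with the lowest larger ratio, the 5 most abundant, the 5 lowest and highest at 50 nM per line, and 4 on each side of the threshold, with MYC and MCL1; others are said to have been chosen after their values were seen. Gene models came from GENCODE lifted to GRCh37, whose nuclear coordinates match hg19. Alternatives were a pseudocount of 0.1, no minimum, a minimum of 10 FPKM, equal-median scaling, a block for replicate number, no trend in eBayes, an adjusted p under 0.05, other thresholds of the rule, and each library left out.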

Additional observations from a re-analysis of the deposited data

How the results depend on the processing

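At 50 nM the COV362 count of members called lower stayed between 98 and 118 of 119 under every alternative run but equal-median scaling. The KURAMOCHI count was 68 of 119, and became 0 with no minimum FPKM (limma, where 108 members had an unadjusted p under 0.05 and 3 of 23621 genes were called lower), 12 with libraries scaled to equal median FPKM, and 0 to 6 without any 1 of its 6 libraries (0 without the second 50 nM or either 250 nM library). In COV362 equal-median scaling left 3, and leaving out 1 library 98 to 118. That scaling put the members' median log2 fold change at -0.54 in KURAMOCHI and -0.55 in COV362, and over all genes it changed the calls at 50 nM from 1607 lower and 12 higher to 84 and 14 in KURAMOCHI, and from 10042 and 11 to 22 and 13 in COV362, with medians of 0.11 and 0.13. Without 1 library the KURAMOCHI median ranged from -1.32 to -1.17. An adjusted p under 0.05 gave 101 members in KURAMOCHI and 118 in COV362. The rule gave 19 members at a ratio of 0.05, 304 at 0.15, 276 at a DMSO minimum of 10 FPKM, 23 at 50 FPKM, 3 after equal-median scaling, and 101 to 135 without 1 library.

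Across genes, deviations of libraries with the same replicate number were little correlated between doses (-0.0087 to 0.00034 in KURAMOCHI and -0.070 to 0.028 in COV362). A shift shared by all genes of a library cannot show in these correlations, so pairing of that kind was not tested. With the replicate block 50 members were called lower at 50 nM in KURAMOCHI and 113 in COV362.

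Of the 41 genes named by the rule, the 50 nM difference turned positive under equal-median scaling for ADNP (0.53), AMOTL2 (0.42), CCDC127 (0.38), CDR2 (0.15), DUSP5 (0.49), E2F3 (0.41), FAM83D (0.58), FBXO5 (0.22), KLF5 (0.56), NUAK2 (0.51) and RND3 (0.64) in KURAMOCHI. In COV362 it did for ADNP (0.19), CCDC127 (0.29), CDKN1B (0.00032), CDR2 (0.21), FAM83D (0.73), FBXO5 (0.057), KLF5 (0.53), RND3 (0.47) and TGIF1 (0.012). RND3 in KURAMOCHI ranged from -0.18 to 0.075 without 1 library, and was 0.017 without the second 50 nM library.

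With 2 libraries a group, no counts and an unknown depth, the tables limit small differences more than large ones, and values near the lowest FPKM assigned to undetected rows (0.078 to 0.119) carry little information. For the results that changed, the cause was not tested.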
